A study of Homo sapiens with 6 samples.

Results

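The 10 genes described here govern or mark the balance between the epithelial and the mesenchymal state: the transcription factors SNAI1, SNAI2, ZEB1, ZEB2, TWIST1 and GRHL2, the cadherins CDH1 and CDH2, and the markers VIM and EPCAM. They were taken by name, as 10 of the 18852 genes with a named probe, and every array probe annotated to one of them was used, which gave 14 of the 48803 probes and at least 1 probe for each gene. Transcripts were measured in IGROV-1, an established human ovarian carcinoma line, on 6 single-colour Illumina bead arrays. The 3 saline samples had received saline for a time the labels do not state, and the 3 CpG-ODN samples had received the phosphorothioate oligonucleotide ODN1826 at 10 µM for 24 h. All cells were grown in the same serum-containing medium. The comparison is thus 1 cell line with and without the oligonucleotide. Whether each array had a culture of its own is not stated, so the error behind every p-value may be technical.

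Cells that leave the epithelial state loosen their junctions, trade E-cadherin for N-cadherin and gain vimentin filaments. Snail and ZEB proteins are zinc finger repressors that bind the E-box CAGGTG, which reads CACCTG on the other strand, in the promoter of the E-cadherin gene and of other epithelial genes, and TWIST1 is a basic helix-loop-helix factor that also binds E-boxes. GRHL2 acts the other way, keeping epithelial genes on and repressing ZEB1. Ovarian carcinomas often carry both kinds of marker, and the epithelium that covers the ovary itself is known for N-cadherin more than for E-cadherin.

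The treatment oligonucleotide is shown because its CpG pairs, in capitals, are the feature that Toll-like receptor 9 recognises. ODN1826 is known mainly as a ligand of the mouse receptor. It has 20 bases with 2 CpG pairs and reads, 5′ to 3′:
ODN1826: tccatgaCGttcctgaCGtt

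The 250 bases before the first annotated start of the paralogous genes ZEB1 and ZEB2 are shown because the factors described here bind E-boxes, and the pair differs in this letter sequence. They come from RefSeq on GRCh38.p14 and are written 5′ to 3′ along the gene, with any CAGGTG or CACCTG in capitals. The ZEB1 stretch is chr10:31318167-31318416 on the plus strand, and the ZEB2 stretch is chr2:144520120-144520369 on the minus strand.
ZEB1: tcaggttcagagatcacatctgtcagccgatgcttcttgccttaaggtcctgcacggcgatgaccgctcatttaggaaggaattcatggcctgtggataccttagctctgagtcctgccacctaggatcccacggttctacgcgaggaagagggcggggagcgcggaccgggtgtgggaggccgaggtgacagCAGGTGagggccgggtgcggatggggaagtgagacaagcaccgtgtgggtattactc
ZEB2: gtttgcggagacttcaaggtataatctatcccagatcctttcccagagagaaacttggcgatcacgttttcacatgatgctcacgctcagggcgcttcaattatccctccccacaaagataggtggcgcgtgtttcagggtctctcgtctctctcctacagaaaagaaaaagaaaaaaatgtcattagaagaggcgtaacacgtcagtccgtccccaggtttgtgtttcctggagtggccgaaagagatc
ZEB1 held 1 such E-box there, whose first base lay 57 bases before the start, and ZEB2 held 0. At least 1 was present in 17.5% of the 35116 such stretches that RefSeq annotation gave. The stretches of 1 chromosome, which holds SNAI2 and GRHL2, were left out for the genes described here but not out of the 17.5%. Of the other genes 4 had stretches, 11 in all, with 7 for ZEB1 and the rest for ZEB2, CDH2 and VIM. Of these 11 stretches 2 held the motif, both of ZEB1. A match is a run of letters and not a measured binding site.

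Detection counted 17142 to 18790 probes per array, and the lowest detected intensity of an array lay between 128.8 and 140.3 in arbitrary units. A probe is called detected here when its deposited detection p was under 0.05. Replicates were less alike under CpG-ODN than under saline. For a pair of saline arrays the probe-by-probe difference had an SD of 0.30 to 0.33 log2 units over the tested probes. The SD was 0.61 for CpG-ODN 1 and 2, 0.48 for 1 and 3 and 0.42 for 2 and 3. From the saline arrays CpG-ODN 1 differed by 0.39 to 0.50, CpG-ODN 2 by 0.43 to 0.49 and CpG-ODN 3 by 0.31 to 0.33. Fold changes that rest on CpG-ODN 1 are also given without it.

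At baseline the saline cells carried transcripts of both states. Of the 14 probes 10 were detected on all 3 saline arrays, and the same number on all 3 CpG-ODN arrays. These 10 belonged to 7 genes: SNAI2, ZEB2, TWIST1, CDH1, CDH2, VIM and EPCAM. The probes of SNAI1 and GRHL2 and the second probe of ZEB2 were detected on 0 of 6 arrays, and ZEB1 was detected on 2 of 3 saline arrays and 1 of 3 CpG-ODN arrays. A probe below detection gives only an upper bound on its transcript, and the brightness of one probe cannot be set against that of another.

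The mesenchymal filament gene VIM was far above background, at 14882, 14195 and 13679 units on saline arrays 1 to 3 with probe ILMN_1782538 and at 7734, 6509 and 7411 with probe ILMN_2058251. EPCAM, an epithelial adhesion protein, gave 5915, 5914 and 6332 units on the same arrays with probe ILMN_2160210. Its other probe, ILMN_2160209, gave 289, 326 and 248 units. Both of these genes, one of each state, were thus detected by 2 probes on every array.

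CDH2, the N-cadherin gene, gave 864, 915 and 714 units on saline arrays 1 to 3. CDH1, the E-cadherin gene, gave 243, 207 and 229 units there, with a detection p of 0.00395 or less. Its probe was above the detection limit on every array, with a detection p of 0.00659 at most on CpG-ODN 2.

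Among the repressors TWIST1 gave 343, 351 and 313 units on the saline arrays. The SNAI2 probes gave 169, 202 and 205 units (ILMN_1655740) and 212, 187 and 145 units (ILMN_2082585). ZEB2 gave 151, 145 and 141 units with probe ILMN_1688698, close to the detection limit. ZEB1 gave 159, 138 and 142 units and missed the limit on saline 2, with a detection p of 0.0553. Its value on CpG-ODN 2 missed it narrowly, with a detection p of 0.0501, and that on CpG-ODN 3 more clearly, at 0.142. SNAI1 stayed between 92.5 and 118 units over the 6 arrays and GRHL2 between 95.6 and 123 units, with detection p of at least 0.182 and 0.128. With the limit set at a detection p of 0.01, 7 of the 14 probes were detected on all saline arrays and 8 on all CpG-ODN arrays.

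CpG-ODN was compared with saline on background-corrected, quantile-normalized log2 values by limma, with p-values adjusted over all tested probes, and fold changes are CpG-ODN minus saline. No probe of the 10 genes passed. Of the 14 probes 11, from 8 genes, were detected on at least 3 of 6 arrays and were tested, and 0 of the 11 had an adjusted p under 0.05 in limma, where 0% of all 17950 tested probes did. At an unadjusted p under 0.05 there were 2 of the 11, both higher in CpG-ODN, where 3.58% of all probes passed in either direction, 1.7% as higher and 1.88% as lower. Of the tested probes 9 had a higher and 2 a lower mean in CpG-ODN, with a median log2 fold change of 0.10, against −0.01 over all tested probes, of which 48.1% had a higher mean. In 2 of the 11 all CpG-ODN arrays lay above all saline arrays, as in 4.32% of all probes, and in 0 of the 11 below, as in 5.03%, so that 9.35% of all probes had groups apart in either direction. The 3 probes that were not tested, those of SNAI1 and GRHL2 and the second of ZEB2, have no fold change here.

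The 95% interval stayed within 2-fold either way for 10 of the 11 tested probes and within 1.5-fold for 5, against 93.6% and 43% of all tested probes. The standard errors ran from 0.17 to 0.32 log2 units. The number of arrays limits this precision.

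**Figure D1:**
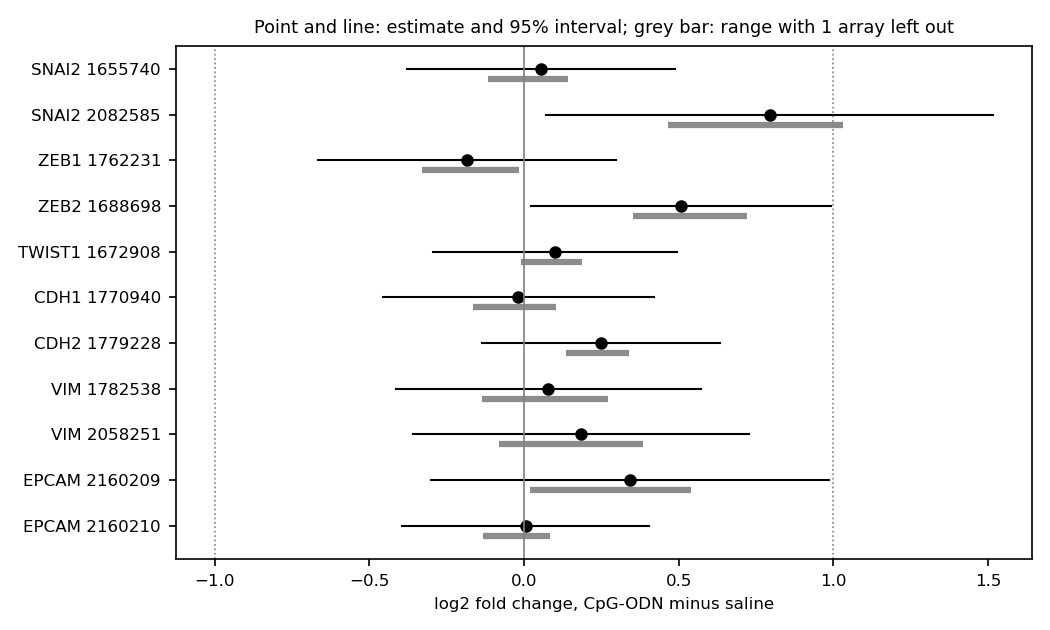
Log2 fold change of CpG-ODN against saline for the 11 tested probes, with the 95% interval of the limma fit as a line and the range of the estimates with 1 array left out as a grey bar. Dotted lines mark 2-fold. The upper end of the interval passes 2-fold only for SNAI2 ILMN_2082585, and the intervals of this probe and of ZEB2 lie above 0 before adjustment.

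SNAI2, which encodes the repressor Slug, showed the biggest difference among the tested probes, on 1 of its 2 probes. On the normalized log2 scale ILMN_2082585 read 6.81, 6.53 and 5.68 in saline 1 to 3 and 7.67, 6.86 and 6.88 in CpG-ODN 1 to 3. The groups did not overlap, though CpG-ODN 2 and saline 1 lay side by side, while saline 3 was low and CpG-ODN 1 was high. The log2 fold change was 0.79 ± 0.32 (SE), or 1.73-fold, with a 95% interval from 0.07 to 1.52, an unadjusted p of 0.0346 and an adjusted p of 1.00 in limma. Of the 17950 tested probes 20 had a fold change at least as high. It was 0.53 without CpG-ODN 1 and 0.46 without saline 3, with unadjusted p of 0.116 and 0.145. Without background correction it was 0.42, and with the deposited normalized values 0.43, with an unadjusted p of 0.0343 in both. These 2 settings gave nearly the same values. With median scaling it was 0.76, with an unadjusted p of 0.0787 in limma.

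The other SNAI2 probe, ILMN_1655740, read 6.21, 6.73 and 6.73 in saline and 6.68, 6.50 and 6.66 in CpG-ODN. Here the groups overlapped and saline 1 was the lowest array. Its log2 fold change was 0.06 ± 0.19 (SE), with an interval from −0.38 to 0.49.

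ZEB2, a zinc finger repressor and partner of SMAD proteins, read 5.86, 5.71 and 5.60 in saline and 6.54, 6.35 and 5.80 in CpG-ODN on its tested probe. CpG-ODN 3 lay among the saline arrays and the other 2 CpG-ODN arrays above them. The log2 fold change was 0.51 ± 0.21 (SE), with an interval from 0.02 to 0.99, an unadjusted p of 0.0415 and an adjusted p of 1.00 in limma. It was 0.35 without CpG-ODN 1, with an unadjusted p of 0.116. The values lie near the background, and without background correction the difference was 0.23, with an unadjusted p of 0.110. Its second probe stayed below detection on all arrays, between 99.6 and 121 units.

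ZEB1, the paralogue of ZEB2, had a lower mean in CpG-ODN. It read 6.02, 5.57 and 5.63 in saline and 5.84, 5.60 and 5.22 in CpG-ODN, with overlapping groups and the lowest value on CpG-ODN 3. The log2 fold change was −0.18 ± 0.21 (SE), with an interval from −0.67 to 0.30. The difference between the fold changes of ZEB1 and ZEB2 was not tested.

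TWIST1, the helix-loop-helix factor, varied little. It read 7.89, 7.95 and 7.72 in saline and 7.78, 8.18 and 7.90 in CpG-ODN, and its log2 fold change was 0.10 ± 0.18 (SE), with an interval from −0.29 to 0.50. The groups overlapped, and CpG-ODN 2 was the highest array.

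Of the 2 cadherins, CDH1 had nearly the same mean in both groups. E-cadherin transcript read 7.14, 6.79 and 7.01 in saline and 6.72, 6.91 and 7.26 in CpG-ODN, so that both the highest and the lowest of the 6 arrays were CpG-ODN arrays. The log2 fold change was −0.02 ± 0.19 (SE), with an interval from −0.46 to 0.42, or 0.73-fold to 1.34-fold.

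CDH2, the N-cadherin gene, lay higher in all 3 CpG-ODN arrays, without passing the test. It read 9.52, 9.65 and 9.24 in saline and 9.73, 9.67 and 9.76 in CpG-ODN. The groups did not overlap, but CpG-ODN 2 lay just above saline 2, and the saline arrays spread further than the CpG-ODN arrays did. The log2 fold change was 0.25 ± 0.17 (SE), or 1.19-fold, with an interval from −0.14 to 0.63, an unadjusted p of 0.178 and an adjusted p of 1.00 in limma. Without saline 3 it was 0.14 (unadjusted p = 0.506), while without CpG-ODN 1 it was 0.24.

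VIM, which encodes the intermediate filament protein vimentin, had group means that differed by less than the spread between arrays, and its CpG-ODN arrays lay on both sides of the saline arrays. Probe ILMN_1782538 read 13.88, 13.79 and 13.71 in saline and 14.30, 13.49 and 13.82 in CpG-ODN. CpG-ODN 1 was the highest and CpG-ODN 2 the lowest of the 6, and CpG-ODN 3 lay among the saline arrays. Probe ILMN_2058251 showed the same order at the ends, with 12.91, 12.65 and 12.82 in saline and 13.51, 12.57 and 12.85 in CpG-ODN. The log2 fold changes were 0.08 ± 0.22 and 0.18 ± 0.24 (SE), with unadjusted p of 0.728 and 0.464. Without CpG-ODN 1 they turned to −0.14 and −0.08, and without CpG-ODN 2 they were 0.27 and 0.39.

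EPCAM, the epithelial adhesion gene, also had group means that differed by less than the spread between arrays. Its bright probe read 12.51, 12.49 and 12.59 in saline and 12.81, 12.38 and 12.42 in CpG-ODN, for a log2 fold change of 0.01 ± 0.18 (SE), which was −0.13 without CpG-ODN 1 and 0.085 without CpG-ODN 2. Its dim probe read 7.54, 7.81 and 7.20 in saline and 8.51, 7.47 and 7.60 in CpG-ODN, for a log2 fold change of 0.34 ± 0.29 (SE), which was 0.02 without CpG-ODN 1 and 0.54 without CpG-ODN 2. The lowest array was CpG-ODN 2 for the bright probe and saline 3 for the dim one. On both probes CpG-ODN 1 alone stood above the saline arrays.

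**Figure D2:**
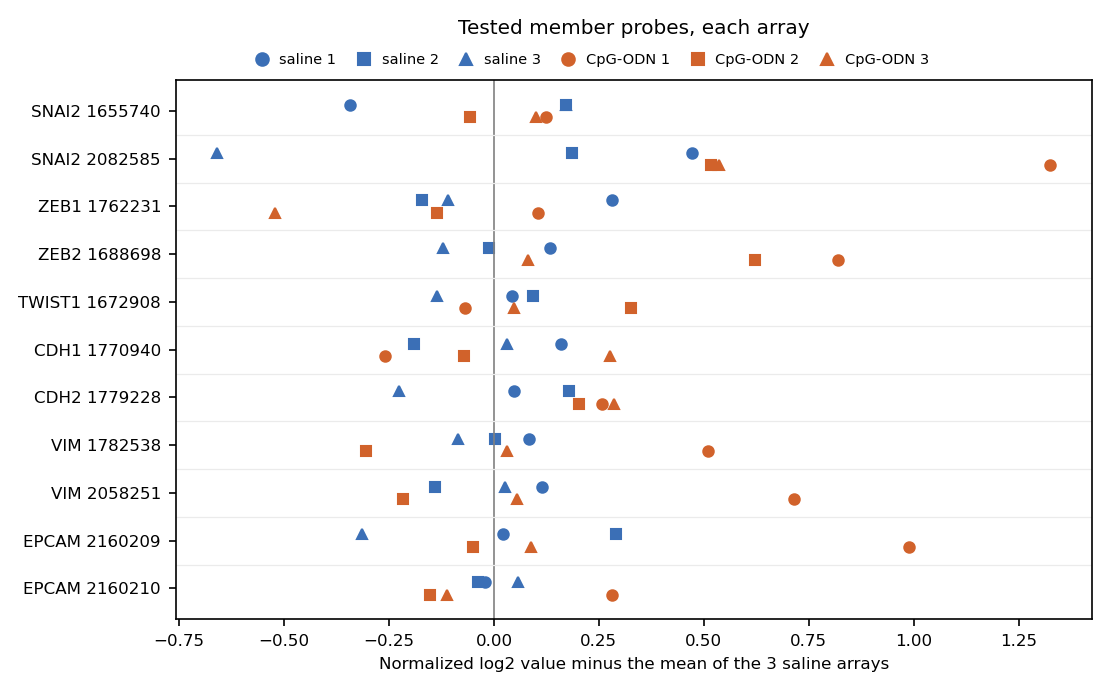
Normalized log2 value of each tested probe on each array minus the mean of the 3 saline arrays, with colours and shapes as samples. CpG-ODN 1 is the highest array in 6 of the 11 probes, among them both probes of VIM and of EPCAM, and for CDH2 the 3 CpG-ODN arrays lie together above the saline arrays.

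CpG-ODN 1 was the highest of the 6 arrays in 6 of the 11 tested probes, against 24.9% of all tested probes, and these 6 were both probes of VIM, both of EPCAM, 1 of SNAI2 and 1 of ZEB2. CpG-ODN 2 was the lowest in 3 of the 11, against 26.8% of all. The CpG-ODN arrays spanned a wider range than the saline arrays in 8 of the 11 probes, against 74.3% of all. Without CpG-ODN 1, 7 of the 11 probes had a higher and 4 a lower mean in CpG-ODN, the median log2 fold change was 0.02, and 0 of the 11 had an unadjusted p under 0.05. That array also had the highest mean intensity, 712.7 units against 592.0 to 650.2 on the others, but the lowest median intensity, 115.5 units against 119.1 to 120.8, and the part of this in the members' values was not tested. Probes of the same gene on the same array share 1 RNA sample, so 2 probes that are both high there are not independent samples.

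Probe agreement differed between the 3 genes with 2 tested probes. In each the fold changes of both probes had the same sign, while among all 2814 genes with several tested probes 46.2% held both signs. The signs parted for EPCAM without CpG-ODN 1 (0.02 and −0.13) and with array weights (0.06 and −0.087). They also parted for EPCAM without saline 1 (0.35 and −0.0044) and without saline 2 (0.49 and −0.012). For SNAI2 they parted without saline 1 (−0.12 and 1.03). The fold changes of a gene's probes differed by 0.11 log2 units for VIM, 0.34 for EPCAM and 0.74 for SNAI2, against a median of 0.20 over all such genes and a 90th percentile of 0.51. The VIM probes followed each other from array to array, with a mean absolute difference between their deviations of 0.08 log2 units, while for SNAI2 it was 0.52. On saline 3 one SNAI2 probe lay 0.14 above its mean over the arrays and the other 1.06 below its own.

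**Figure D3:**
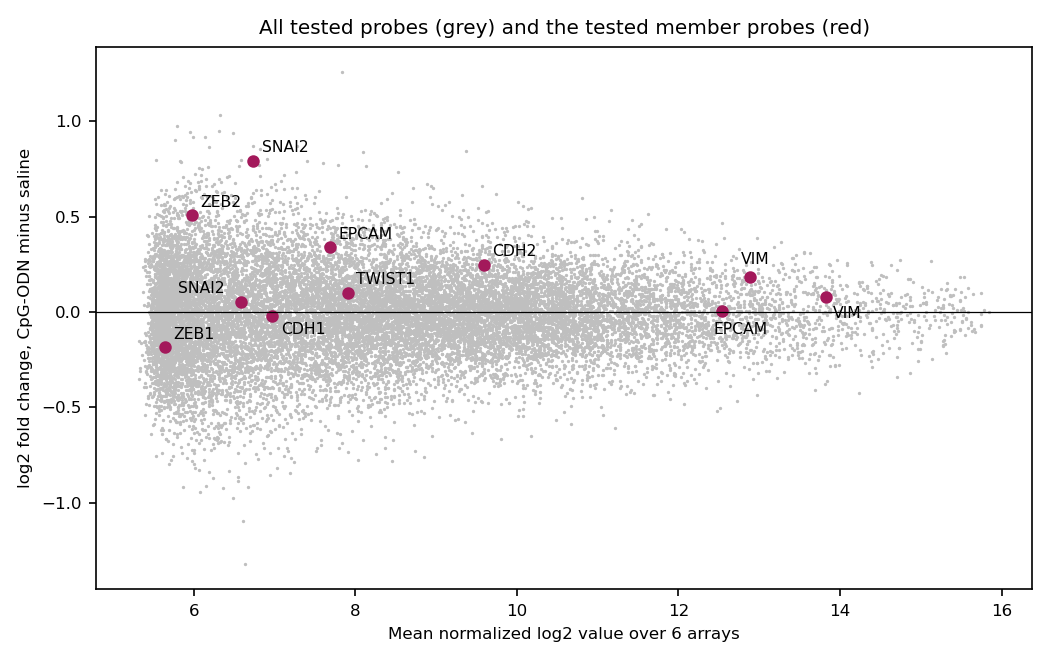
Log2 fold change of CpG-ODN against saline over the mean normalized log2 value for all 17950 tested probes (grey) and the 11 tested probes of the described genes (red, each with its symbol). The red points lie within the cloud of all probes, with 1 SNAI2 probe near its upper edge.

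Related genes were drawn from lists of the same biology, and each gene was read from its brightest tested probe. In no list did a gene pass in limma, higher or lower, where 0% of the 11040 genes with a tested probe did. At an unadjusted p under 0.05, 1.57% of all genes were higher and 1.36% lower, and 48.8% had a higher mean.

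Of 20 other cadherins 18 had a named probe and 7 were tested, 4 higher and 3 lower by mean, at a median log2 fold change of 0.06. CDH3, the P-cadherin gene, was detected on 0 arrays, as was the endothelial cadherin gene CDH5. CDH11, a cadherin of mesenchymal cells, was detected on all 6 and lay at 0.06 ± 0.20 (SE). CDH15, detected on 3 of 6 arrays, lay at 0.37 and CDH7 at −0.31, with unadjusted p of 0.0999 and 0.145.

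Catenins, which tie cadherins to the cytoskeleton, had a lower mean in 3 of 3 tested genes, at a median of −0.17. CTNNB1, which encodes beta-catenin, lay at −0.36 ± 0.18 (SE) with an unadjusted p of 0.0790, and its other tested probes gave −0.34, −0.15 and 0.05. CTNNA1, the alpha-catenin gene, lay at −0.17 ± 0.18 (SE). Neither passed. CTNNA3 was detected on 0 arrays and CTNNA2 on 1.

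Epithelial junction and keratin genes were largely present. Of 33 genes 29 had a named probe, and 22 were detected on all 6 arrays by at least 1 probe. The tight junction gene TJP1 was detected on all arrays and OCLN, which encodes occludin, on none. Of the 23 tested genes 9 had a higher and 14 a lower mean, at a median of −0.02. With an unadjusted p under 0.05 there were 2, both lower: SPINT1, a protease inhibitor of epithelia, at −0.67 ± 0.22 (SE, detected on 4 of 6 arrays), and the mucin gene MUC1 at −0.37 ± 0.15 (SE). The other tested MUC1 probes gave −0.45 and −0.10.

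Epithelial transcription and splicing factors were mostly below detection. Of 15 genes 13 had a named probe, 7 were detected on 0 arrays and 5 were tested. GRHL3 and OVOL1 were among those at 0 arrays, and GRHL1 reached detection on 2 of 6. KLF4, a factor of epithelial differentiation, lay at 0.62 ± 0.27 (SE) with an unadjusted p of 0.0452, and EHF, an epithelial ETS factor, at −0.57 ± 0.26 (SE) with one of 0.0560.

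Among mesenchymal genes other than the members, 7 of 15 transcription factors were tested, 2 higher and 5 lower by mean, at a median of −0.20. SNAI3 was detected on 0 arrays, TWIST2 on 1, and TCF3, which encodes an E-box factor, on all 6, at −0.29 ± 0.23 (SE). KLF8 lay at 0.41 and FOXC2 at −0.32, with unadjusted p of 0.0613 and 0.143. Of 29 mesenchymal effectors 28 had a named probe and 16 were tested, 2 higher and 14 lower by mean, at a median of −0.12. The 3 probes of the fibronectin gene FN1 and the probe of SPARC were detected on 0 arrays. ITGB1, the integrin beta-1 gene, lay at −0.32 ± 0.17 (SE), and THY1 at −0.18 ± 0.17 (SE). Of 15 genes for Snail turnover and ZEB corepressors 13 were tested, 4 higher and 9 lower, at a median of −0.20. The kinase gene GSK3B, whose product marks Snail for destruction, lay at −0.32 ± 0.17 (SE), and BTRC, a ubiquitin ligase subunit that acts on marked Snail, at −0.27. FBXL5, a ligase subunit of the same kind, lay at −0.21.

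By the highest correlation over the 6 arrays among 11039 other genes, VIM was most like ME1 and DCPH1 (Pearson r of 0.998 for each), EPCAM like MINDY2 and ZNF549 (0.997 and 0.995), CDH2 like SMARCA2 and KIF16B (0.992 and 0.982), and CDH1 like ALOXE3 and CDC45 (0.984 and 0.981). An r above 0.95 was reached by 209 genes with VIM, 60 with EPCAM, 16 with CDH1 and 12 with CDH2. The points of each correlation are the same 6 arrays, and the values are quantile normalized. With 6 points and 11039 genes searched, values this high can arise between unrelated genes, and how many would was not computed.

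Markers of ovarian carcinoma were mostly present. Of 10 ovarian carcinoma markers 9 had a named probe and 6 were detected on all arrays, among them PAX8, FOLR1 and the member EPCAM, while MUC16 missed detection on 1 CpG-ODN array. WT1 was detected in no saline sample and in 2 CpG-ODN samples, and MSLN in no saline sample and in 1. Of the fibroblast markers 5 of 10 were detected on 0 arrays (COL1A2, COL3A1, LUM, FAP and POSTN), of the leukocyte markers 5 of the 9 with a probe, PTPRC, CD3D and CD3E among them, and of the endothelial markers 5 of 8, CDH5 among them. COL1A1 was detected on 1 CpG-ODN array, and THY1 and PDGFRA, like CD14, CD68, PECAM1 and VWF of the other lists, on all 6. By their most often detected probe, LYZ and MS4A1 were detected on all saline arrays and 2 CpG-ODN arrays. DCN was detected on 2 saline arrays and 1 CpG-ODN array, KDR on 2 saline arrays and PDGFRB on 1 CpG-ODN array. Over all probes of a list, the summed log2 level of the ovarian markers ran from 129.2 to 131.6 in saline and from 129.4 to 133.0 in CpG-ODN. That list holds both EPCAM probes, so its sum shares values with the members' own. The sum of the fibroblast markers ran from 88.0 to 89.0 in saline and from 86.6 to 89.2 in CpG-ODN. For leukocytes the ranges were 112.0 to 113.1 and 110.8 to 114.5, and for endothelium 49.7 to 50.9 and 49.5 to 50.3. The members' own sum ran from 108.9 to 111.0 in saline and from 110.5 to 115.1 in CpG-ODN, and the 115.1 was that of CpG-ODN 1. This sum adds genes of both states and also the undetected probes. The part of the marker levels in it was not tested.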

How the data were processed

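Total RNA was labelled as biotinylated cRNA and hybridised to Illumina bead arrays, per the labels' protocols. The deposited intensity of each probe was linear and non-normalized, per the file headers, and each came with a deposited detection p-value. The submitters' processing notes name BeadStudio, without a version. A second deposited table of normalized intensity values served as an alternative; how these were made is not stated.

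Background was corrected with neqc (limma 3.58.1, R 4.3.3, offset 16), with the negative controls inferred from detection p-values, and the result was quantile normalized and put on the log2 scale. The offset draws fold changes of dim probes towards 0. Detection (p under 0.05) on 3 or more of 6 arrays was required, which kept 17950 of 48803 probes, and these were tested with lmFit and eBayes, with group as the sole term. P-values were adjusted by Benjamini-Hochberg over these probes. Of all probes 28098 had 1 gene symbol in the platform annotation, 13 several and 20692 none; gene numbers matched RefSeq names (GRCh38.p14) for 28059. The probe with the highest mean stood for a gene outside the members. From each related list the text names the first 3 genes and the 2 with the smallest unadjusted p, where these have a named probe, and all probes of the members. LUM, FAP, POSTN, MSLN, LYZ, MS4A1, DCN, KDR and PDGFRB were named after their values were seen. For VIM, EPCAM, CDH1 and CDH2 it names the 2 genes with the highest correlation. The members, lists and alternatives were chosen with earlier results of these data known. The alternatives were other background, normalization, filter and offset settings, array weights, a replicate block, 1 probe per gene and each array left out.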

Additional observations from a re-analysis of the deposited data

How the results depend on the processing

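The count of called probes was 0 under all 15 alternatives run, over all probes and over the members, in limma. The count of all probes at an unadjusted p under 0.05 was 643 under the main settings, 334 after median scaling and 2903 with array weights; it was 1646 without CpG-ODN 1, 407 without saline 2, 366 without saline 3, 424 without saline 1 or with detection p under 0.01 on all 6 arrays (11897 probes tested), 997 without CpG-ODN 3, 395 with 1 probe per gene (11040 tested) and 2051 with no filter (48803 tested). Of 158 values of single member probes 146 kept their sign, and 0 passed the threshold. With array weights, where the CpG-ODN arrays 1, 2 and 3 weighed 0.257, 0.349 and 4.71, CDH1 turned to 0.26 and EPCAM ILMN_2160210 to −0.087, ZEB2 shrank to 0.15, and ZEB1 moved to −0.44 (unadjusted p = 0.0168). With 1 array left out the log2 fold changes ranged from −0.12 to 0.14 for SNAI2 ILMN_1655740, 0.46 to 1.03 for SNAI2 ILMN_2082585, −0.33 to −0.02 for ZEB1, 0.35 to 0.72 for ZEB2, −0.011 to 0.19 for TWIST1, −0.17 to 0.10 for CDH1, 0.14 to 0.34 for CDH2, −0.14 to 0.27 for VIM ILMN_1782538, −0.081 to 0.39 for VIM ILMN_2058251, 0.02 to 0.54 for EPCAM ILMN_2160209 and −0.13 to 0.085 for EPCAM ILMN_2160210. For these changes of sign the cause was not tested. The replicate block left the fold changes as they were, gave 0 called probes and 893 at an unadjusted p under 0.05, and gave SNAI2 ILMN_2082585 an unadjusted p of 0.00354 and ZEB2 one of 0.0224, with the smallest adjusted p of a member at 0.970. Over the alternatives the smallest adjusted p of any member probe ran from 0.203, for ZEB1 with array weights, to 1.00. As to pairing, the labels give no paired design, so the numbers were not taken as pairs. The deviations of same-numbered arrays correlated at 0.34, 0.05 and 0.13 over the tested probes. Those of arrays with unlike numbers correlated at −0.31 to −0.03, except for CpG-ODN 2 with saline 3 (0.24). Thus CpG-ODN 2 did not correlate best with its own number. The probes of ZEB1, ZEB2, SNAI2 and CDH1 were dim, with CDH1 at 186 to 243 units. The part of the background in their fold changes was not tested.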

Other observations

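These features were chosen after their values were seen. CTBP1, a corepressor of ZEB proteins, had 2 probes with a lower mean in CpG-ODN, at −0.61 ± 0.19 and −0.45 ± 0.19 (SE) and with unadjusted p of 0.00965 and 0.0453, while its brightest probe lay at 0.02 ± 0.17. In limma the adjusted p was 1.00 for each. TBXT, the brachyury gene, a mesodermal transcription factor, was detected on all 6 arrays with both of its probes, at 4933 to 8238 units on the brighter one, and lay at −0.06 ± 0.18 (SE). The endothelial marker VWF was detected on all 6 arrays at −0.41 ± 0.19 (SE), while CDH5 was detected on 0 arrays.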
